A study of Mus musculus with 14 samples.

Results

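The comparison described here set cultured mouse oligodendrocyte (OL) lineage cells that had received either of 2 non-targeting siRNAs against the same cells that had received none. It used 8 of the 14 samples, all taken at Day3: 2 libraries with NC siRNA #1 and 2 with NC siRNA #2 on one side, and 2 mock and 2 non-treated libraries on the other. The samples were taken by their labels, and a gene was tested where its FPKM (fragments per kilobase of transcript, scaled to the mapped fragments of the library) reached at least 1 in 2 or more of the 8 libraries. This kept 11392 of 23427 genes. The question was what any siRNA does in these cells, so the shared response was defined as a change in the same direction with both siRNAs. The p-values given below for single genes rest on the spread between libraries of the same group. They speak of these 2 siRNAs and not of siRNAs in general.

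All 8 samples were wild-type C57BL/6J primary oligodendrocyte precursor cells (OPCs). They were purified from the cortices of pups at postnatal day 7 by panning, first against microglia and endothelial cells and then with an antibody to Pdgfra, and were differentiated by taking away the growth factor PDGF-AA and adding the thyroid hormone T3. The siRNAs were given with a lipid transfection reagent. The sources used here do not say what the mock cells received, and they give no sequence for either siRNA. The remaining 6 samples were Day0 OPCs and Day3 cells with siRNAs against Secisbp2l or Pdgfra, with 2 libraries each. The study describes its replicates as independent cultures, and 2 libraries a group leave little to estimate the spread from.

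A small interfering RNA is a short RNA duplex of which 1 strand is loaded into an Argonaute protein and guides it to matching messenger RNAs. Even a duplex designed to match no transcript can lower many messages whose 3′UTRs pair with the seed at the guide's 5′ end, and double-stranded RNA is also known to set off interferon signalling in some cells. OPCs divide, leave the cell cycle as PDGF-AA is withdrawn, and then switch on the genes of the myelin membrane.

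The sequence depth, inferred from the steps between low FPKM values, was 18481337 to 21352899 fragments in 7 of the 8 libraries and 6560824 in the NC siRNA #2 replicate 2 library. A count of 0 allowed an FPKM of up to 0.0812 in the 7 libraries and 0.2286 in that one for a gene with 2 kb of exon, counting error only. The log2 difference between replicates had an SD over genes of 0.147 with NC siRNA #1, 0.174 with NC siRNA #2 and 0.148 in the mock group. In the non-treated group it was 0.463, and there the difference ran with the GC content of the gene (Spearman's rho = -0.78 across genes, which are not independent replicates). The rho of the replicate difference was 0.46 with NC siRNA #1, -0.19 with NC siRNA #2 and 0.06 in the mock group. The mock and non-treated groups differed with GC content too (rho = 0.64), the 2 siRNA comparisons much less (0.09 and 0.17). Calls were therefore also made without each single library and with each control group alone. At the edge of the filter, Smyd5 had a second-highest FPKM of 1.0029 and was tested, whereas Sult4a1 had 0.9989 and was not.

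The cells carried OL markers throughout. Cnp, an enzyme of the myelin sheath, stood between 1273 and 1777 FPKM in the 4 libraries without siRNA, at 1808 and 1895 with NC siRNA #1 and at 1339 and 1339.7 with NC siRNA #2, and Olig2, a transcription factor of the lineage, between 151 and 185 FPKM in the 4 libraries without siRNA, at 129 and 139.5 with NC siRNA #1 and at 166 and 162 with NC siRNA #2. The microglial markers Aif1, C1qa and Tyrobp and the endothelial markers Cldn5 and Cdh5 were at 0 in all 8 libraries. Not all such markers were at 0. Of 12 microglia markers 6 were at 0 and 11 below 1 FPKM throughout, and of 8 endothelial markers 3 and 7. The microglia marker P2ry12 reached 9.46 FPKM with NC siRNA #1 and was called higher with it, as described further below. The astrocyte marker Gfap was present, between 36.8 and 55.9 FPKM in the 4 libraries without siRNA, at 36.8 and 38.8 with NC siRNA #1 and at 79.2 and 73.7 with NC siRNA #2. Gfap did not meet the criteria below with either siRNA.

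Both siRNAs changed genes in both directions. A gene was called where limma's moderated test on log2(FPKM + 1) gave a fold change of at least 2 and a Benjamini-Hochberg adjusted p under 0.05 over all genes tested. Against the mean of the mock and non-treated groups, NC siRNA #1 changed 386 genes, 188 higher and 198 lower, which is 3.39% of those tested (1.65% higher and 1.74% lower). NC siRNA #2 changed 255 genes, or 2.24%, with 88 higher (0.772%) and 167 lower (1.47%). Mock against non-treated gave 1 gene, or 0.00878%, although 1310 genes had an unadjusted p under 0.05. The count was 113 without non-treated replicate 1, 8 without non-treated replicate 2 and 0 without any other single library. The 1 gene was Cd44, a cell-surface receptor for hyaluronan, named after its values were seen, at 5.63 and 5.62 FPKM in the non-treated and 15.6 and 16.95 in the mock libraries. Cd44 was at 14.03 and 13 FPKM with NC siRNA #1 and 12.03 and 11.1 with NC siRNA #2, so that all 6 libraries of the other 3 groups lay above the non-treated ones.

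The direct comparison of both siRNAs with each other gave 458 genes (4.02%), 185 higher and 273 lower with NC siRNA #2. In all, 75 genes (0.658%) were called in the same direction with both, 22 higher and 53 lower, and 8 (0.0702%) were called in opposite directions. With the 2 siRNAs averaged, 149 genes (1.31%) were called against no siRNA. Because the 2 comparisons share the 4 control libraries, the shared count was also made with separate controls: it was 59 with NC siRNA #1 set against mock and NC siRNA #2 against non-treated, and 61 the other way round. With mock as the only control 14 genes were higher and 50 lower with both, and with non-treated as the only control 37 were higher and 48 lower, so that the number of shared rises depended on the control. The shared count was 14 with a pseudocount of 5, 49 among genes with FPKM of at least 5 in 2 libraries, and 30 with mock as the only control and without the shallow NC siRNA #2 library. With the 2 siRNAs and the 2 control groups as single replicates, limma called 2 genes, Gm10012 and Prc1.

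**Figure D1:**
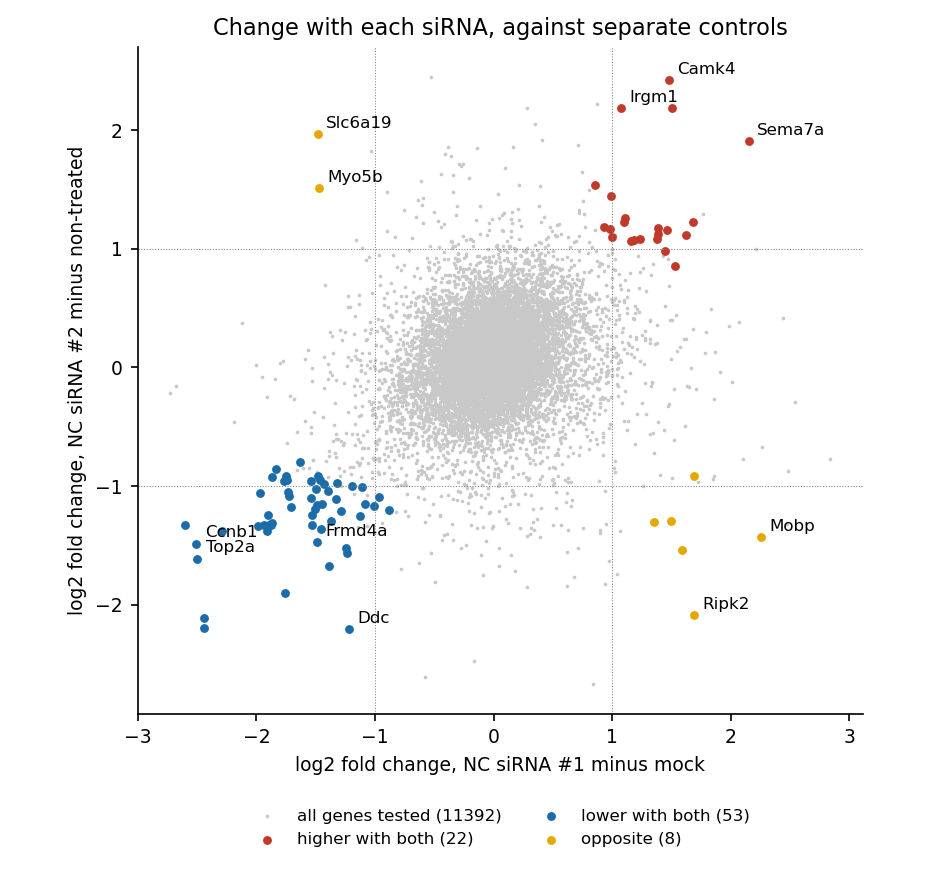
Each point is 1 of the 11392 genes tested, with the log2 fold change of NC siRNA #1 against mock on the horizontal axis and that of NC siRNA #2 against non-treated on the vertical axis, so that the axes share no library. Coloured points are the 53 genes lower with both siRNAs, the 22 higher with both and the 8 called in opposite directions, as called with all 4 control libraries. Dotted lines mark a fold change of 2, and Mobp and Ripk2 lie at the lower right, raised by NC siRNA #1 and lowered by NC siRNA #2.

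Genes of DNA replication and cell division were the pathway list with the most shared calls, all of them falls. Of 32 such genes in the list used here, all tested, 21 fell with NC siRNA #1 and 15 with NC siRNA #2, where 1.74% and 1.47% of all genes tested were called lower. All 15 of the latter fell with both, and none rose with either. The median log2 change of the list was -1.38 with NC siRNA #1 and -0.94 with NC siRNA #2, against 0.01 and 0.06 over all genes tested. In 28 of the 32 genes all 4 siRNA libraries lay below all 4 libraries without siRNA, a pattern seen in 8.09% of all genes tested. The list makes up 15 of the 53 shared falls. It does not hold every gene of cell division, so 15 is not the full number of such genes among the falls. The 15 became 8 without NC siRNA #2 replicate 2, 9 without NC siRNA #2 replicate 1 and 1 with a pseudocount of 5. With separate controls the count was 10 for NC siRNA #1 against mock and NC siRNA #2 against non-treated, and 15 the other way round. It was 10 with non-treated as the only control and 16 with mock as the only control.

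Top2a, the topoisomerase that untangles replicated chromosomes, stood at 12.3 and 16.02 FPKM in the non-treated libraries, 13.6 and 14.2 in the mock libraries, 1.33 and 1.98 with NC siRNA #1 and 4.11 and 3.74 with NC siRNA #2. The siRNA libraries lay well below every control library, lower with NC siRNA #1 than with NC siRNA #2. The log2 changes were -2.51 ± 0.15 with NC siRNA #1 and -1.61 ± 0.15 with NC siRNA #2 (limma, adjusted p = 0.00016 and 0.001). Ccnb1, the cyclin that drives entry into mitosis, stood at 6.93 and 8.19 FPKM in the non-treated libraries, 7.91 and 8.22 in the mock libraries, 0.438 and 0.7703 with NC siRNA #1 and 1.99 and 2.11 with NC siRNA #2. Its changes were -2.46 ± 0.12 with NC siRNA #1 and -1.53 ± 0.12 with NC siRNA #2 on the log2 scale (± SE, as elsewhere). The groups with and without siRNA did not overlap.

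Ube2c, an E2 enzyme of the anaphase-promoting complex, was between 8.05 and 14.3 FPKM in the 4 libraries without siRNA, at 0.763 and 1.63 with NC siRNA #1 and at 4.13 and 3.27 with NC siRNA #2. It was the single shared fall for which the difference between the siRNAs was itself called, 1.12 ± 0.28 for NC siRNA #2 minus NC siRNA #1 (limma, adjusted p = 0.038). By limma 13 of the 53 shared falls had an adjusted p under 0.05 for this difference, as did 1732 of all 11392 genes tested. Top2a (0.90) and Ccnb1 (0.93) were among the 13 and missed the fold threshold. Mki67, which coats mitotic chromosomes and is the usual marker of cycling cells, was between 4.61 and 6.61 FPKM in the 4 libraries without siRNA, at 0.765 and 0.823 with NC siRNA #1 and at 1.93 and 1.32 with NC siRNA #2. All 4 siRNA values of Mki67 lay below the lowest control. Rrm2, a subunit of the enzyme that makes deoxynucleotides, was between 7.43 and 8.42 FPKM in the 4 libraries without siRNA, at 1.54 and 1.49 with NC siRNA #1 and at 2.56 and 2.31 with NC siRNA #2. Cdk1, the mitotic kinase, was between 3.09 and 5.19 FPKM in the 4 libraries without siRNA, at 0.479 and 0.716 with NC siRNA #1 and at 1.46 and 1.599 with NC siRNA #2. Plk1, a kinase of spindle assembly, was between 2.85 and 5.17 FPKM in the 4 libraries without siRNA, at 0.553 and 0.786 with NC siRNA #1 and at 1.18 and 1.31 with NC siRNA #2. In these 3 genes too the lowest control library was above the highest siRNA library.

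Not every gene of the list was called. The genes of the list that were not called with either siRNA were Mcm2, Mcm4, Mcm6 and Mcm7, subunits of the replicative helicase, together with Pcna, Ccnb2, Ccne1, Ccne2, Rrm1, Tyms and Tk1. Mcm3, Mcm5, Aurka, Aurkb, Bub1 and Cdca8 were called with NC siRNA #1 and not with NC siRNA #2. The difference between siRNAs was called for 1 of the 32 genes, Ube2c, while 9 of the 32 had an adjusted p under 0.05 for it by limma. Of all 11392 genes tested, 458 were called for this difference and 1732 had an adjusted p under 0.05 by limma. Outside the list, Ccnd1, the cyclin through which growth factors drive the start of the cycle, stood at 16.3 and 14.5 FPKM in the non-treated libraries, 19.96 and 18.8 in the mock libraries, 8.43 and 8.96 with NC siRNA #1 and 5.43 and 5.54 with NC siRNA #2. Its log2 change passed the fold threshold with NC siRNA #2 (-1.5 ± 0.09) and missed it with NC siRNA #1 (-0.92 ± 0.09). Cdkn1a, an inhibitor of cyclin-dependent kinases, stood at 32.4 and 22.9 FPKM in the non-treated libraries, 31.2 and 30.5 in the mock libraries, 40.8 and 42.8 with NC siRNA #1 and 68.2 and 66.1 with NC siRNA #2 and was called higher with NC siRNA #2 alone (1.18 ± 0.14). In these bulk samples, fewer dividing cells and less of these RNAs per cell cannot be told apart.

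**Figure D2:**
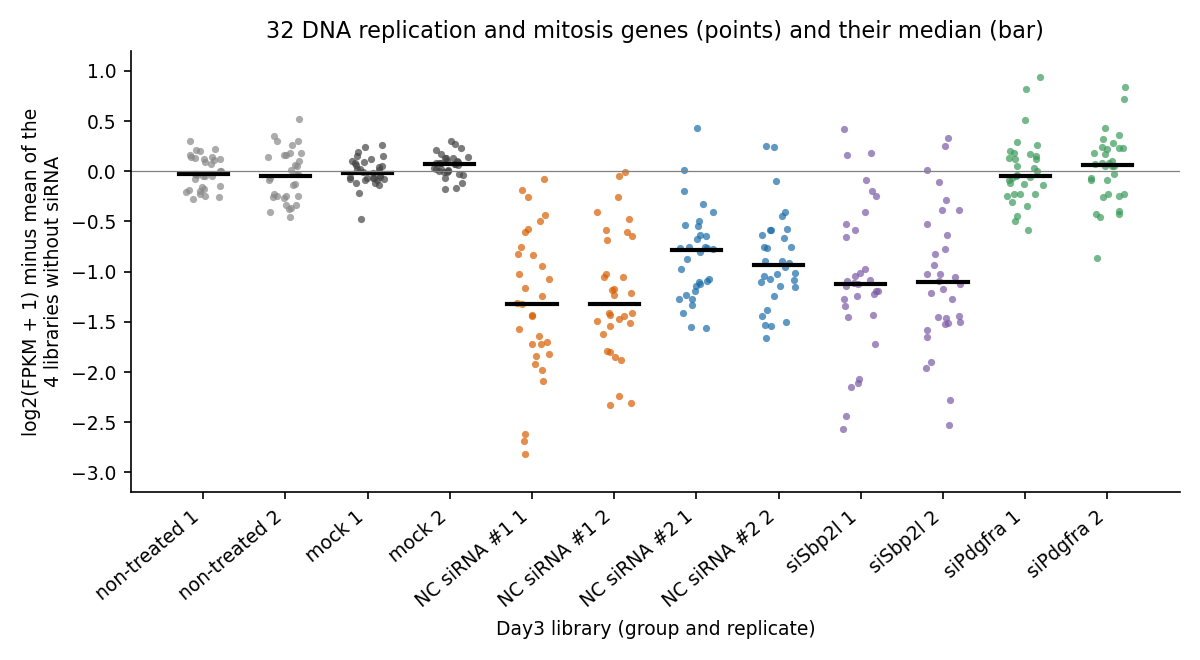
Difference of log2(FPKM + 1) from the mean of the 4 libraries without siRNA, for the genes of the DNA replication and mitosis list, in each of the 12 Day3 libraries (siSbp2l marks siRNA against Secisbp2l). Points are genes and bars are medians, which lie at -1.32 in both NC siRNA #1 libraries, at -0.79 and -0.93 in the NC siRNA #2 libraries and near 0 with siRNA against Pdgfra.

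The same genes were read in the libraries with targeting siRNAs, against the same 4 controls and with no test. The list's median difference was -1.12 and -1.11 in the libraries with siRNA against Secisbp2l, and -0.05 and 0.06 in those with siRNA against Pdgfra. Top2a was at 1.53 and 1.599 FPKM in the former and 9.65 and 11.8 in the latter. In the Day0 OPCs the median was 3.70 and 3.68, and Top2a was at 219.5 and 264 FPKM. The list's median was thus -0.79 or lower in 6 of the 8 libraries that had received an siRNA, and near 0 in the other 2. These values share the 4 control libraries.

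Many of the division genes carry CCAAT boxes, the sequence bound by the factor NF-Y, near their starts. In the 250 bases before the start, as listed by RefSeq on GRCm38.p6, CCAAT or its reverse complement ATTGG was found in 23 of the 27 list genes with a promoter in that table (85.2%). It was found in 37.5% of the 8412 tested genes and 34.5% of all 27025 genes of the table. The word TTTGAA (or TTCAAA), part of the element called CHR that is known from genes of late cell cycle, was found in 8 of the 27 (29.6%), against 9.5% of the tested genes and 16.3% of all. The 150 bases before the start are shown for 3 of the genes described above, all on the minus strand, as examples with both words or with CCAAT alone. Capitals mark each match on either strand.
Top2a, chr11:99024190-99024339: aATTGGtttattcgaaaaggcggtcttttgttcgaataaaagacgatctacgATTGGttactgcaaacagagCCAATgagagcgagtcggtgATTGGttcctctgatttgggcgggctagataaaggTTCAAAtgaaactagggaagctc
Ccnb1, chr13:100786487-100786636: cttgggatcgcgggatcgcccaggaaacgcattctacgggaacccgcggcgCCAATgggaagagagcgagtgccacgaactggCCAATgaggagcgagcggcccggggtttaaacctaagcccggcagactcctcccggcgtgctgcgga
Cdk1, chr10:69352913-69353062: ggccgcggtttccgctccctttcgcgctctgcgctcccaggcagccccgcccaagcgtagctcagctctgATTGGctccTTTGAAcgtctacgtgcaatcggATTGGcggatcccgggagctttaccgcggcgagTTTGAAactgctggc
Top2a held 4 CCAAT boxes and 1 TTTGAA word in this window, Ccnb1 held 2 and 0, and Cdk1 held 2 and 2. Among the shared falls outside the list, 17 of 29 promoters (58.6%) held a CCAAT box, and among the shared rises 6 of 17 (35.3%). Those falls include many further genes of cell division, so the 58.6% does not describe genes of other functions alone. A match in these windows is a description of the sequence only.

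The other 38 shared falls lay outside this list, although many of them are known from cell division as well. Examples are Nuf2, Kif2c, Nusap1, Hmmr, Ect2, Cdca3, Pttg1 and Racgap1, besides the 2 genes given next. Prc1, which bundles microtubules of the dividing spindle, was between 7.46 and 9.13 FPKM in the 4 libraries without siRNA, at 0.724 and 0.924 with NC siRNA #1 and at 1.46 and 0.759 with NC siRNA #2. Tpx2, which activates the kinase Aurora A, was between 5.74 and 6.86 FPKM in the 4 libraries without siRNA, at 1.28 and 1.17 with NC siRNA #1 and at 2.06 and 2.395 with NC siRNA #2. Both had siRNA values far under every control value.

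Other shared falls are known for other functions. F2r, the thrombin receptor PAR1, stood at 32.98 and 36.6 FPKM in the non-treated libraries, 37.6 and 35.8 in the mock libraries, 8.02 and 9.09 with NC siRNA #1 and 12.2 and 14.1 with NC siRNA #2, a change of -1.94 ± 0.11 with NC siRNA #1 and -1.38 ± 0.11 with NC siRNA #2 on the log2 scale. Frmd4a, a scaffold protein of cell polarity, was among the most abundant, at 59.6 and 58.5 FPKM with NC siRNA #1 and 71.8 and 66.4 with NC siRNA #2, against 190.2 and 196 in the non-treated and 171 and 164 in the mock libraries. Neither gene had any overlap between the groups with and without siRNA.

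Rell1, a membrane protein related to the TNF receptor RELT, was between 73.2 and 82.9 FPKM in the 4 libraries without siRNA, at 28.4 and 27.6 with NC siRNA #1 and at 25.4 and 23.5 with NC siRNA #2. Ddc, the decarboxylase that makes dopamine and serotonin, was between 27.3 and 50.6 FPKM in the 4 libraries without siRNA, at 11.2 and 11.2 with NC siRNA #1 and at 9.13 and 8.42 with NC siRNA #2. The highest siRNA value of Ddc, 11.2, was well under the lowest control value, 27.3. Olfm1, a secreted glycoprotein, was between 115 and 144 FPKM in the 4 libraries without siRNA, at 56.1 and 63.8 with NC siRNA #1 and at 44.04 and 41.6 with NC siRNA #2, again with a gap between the groups.

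Hsd17b12, a reductase of very-long-chain fatty acid synthesis, stood at 144 and 169 FPKM in the non-treated libraries, 141 and 138 in the mock libraries, 47.1 and 47.2 with NC siRNA #1 and 71.96 and 72.5 with NC siRNA #2. Its change with NC siRNA #2 was just past the fold threshold (-1.02 ± 0.09), and it was larger with NC siRNA #1 (-1.63 ± 0.09). Gadd45b, a stress-induced gene, was between 29.6 and 47.7 FPKM in the 4 libraries without siRNA, at 11.8 and 14.2 with NC siRNA #1 and at 12.2 and 11.9 with NC siRNA #2. Both siRNAs brought it to much the same level. The uncharacterised gene 3110035E14Rik was between 29.7 and 37.7 FPKM in the 4 libraries without siRNA, at 8.09 and 7.62 with NC siRNA #1 and at 13.3 and 12.9 with NC siRNA #2. The predicted gene Gm10012 was also called with both siRNAs (-2.26 ± 0.45 with NC siRNA #1 and -2.37 ± 0.45 with NC siRNA #2), but its replicates were far apart, at 21.8 and 6.35 FPKM in the non-treated libraries and 2.53 and 19.9 with siRNA against Pdgfra.

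Most shared falls were of lowly expressed genes: 11 of the 53 reached an FPKM of 10 in any of the 8 libraries compared, against 7205 of the 11392 tested. Among those below this level, Synpr, a synaptic vesicle protein, fell from 4.49 and 7.21 FPKM in the non-treated and 4.56 and 6.38 in the mock libraries to 0.298 and 0.329 with NC siRNA #1 and 1.08 and 2.21 with NC siRNA #2. Dll3, a Notch ligand, was between 2.403 and 6.22 FPKM in the 4 libraries without siRNA, at 0.399 and 0.194 with NC siRNA #1 and at 0.875 and 1.13 with NC siRNA #2. The median GC content was 47.0% for the shared falls and 52.7% for the shared rises, with 49.5% over all genes tested. With GC content and exon length trends removed, 64 genes were shared, 59 of them among the 75.

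Of the 22 shared rises, 17 reached an FPKM of 10 in these libraries. Sema7a, a membrane-anchored semaphorin, stood at 1.46 and 1.32 FPKM in the non-treated libraries, 2.17 and 2.32 in the mock libraries, 13.1 and 13.7 with NC siRNA #1 and 7.38 and 8.56 with NC siRNA #2, the largest shared rise of those at 10 FPKM or more by the mean of both siRNAs, at 2.37 ± 0.10 with NC siRNA #1 and 1.69 ± 0.10 with NC siRNA #2 (limma, adjusted p = 6.3e-05 and 0.00024). Camk4, a calcium/calmodulin-dependent kinase, was between 0.7598 and 1.45 FPKM in the 4 libraries without siRNA, at 6.26 and 5.404 with NC siRNA #1 and at 10.2 and 10.1 with NC siRNA #2, and had the larger rise with NC siRNA #2 (2.31 ± 0.15). Kcna5, a voltage-gated potassium channel, was between 3.43 and 7.18 FPKM in the 4 libraries without siRNA, at 21.2 and 20.1 with NC siRNA #1 and at 22 and 20.6 with NC siRNA #2. For these 3 genes the lowest siRNA library lay more than 2 times above the highest control library.

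Irgm1, an interferon-inducible GTPase, was between 7.27 and 10.3 FPKM in the 4 libraries without siRNA, at 22.5 and 23 with NC siRNA #1 and at 37.6 and 39.6 with NC siRNA #2. St5, a regulator of Rab GTPases, was between 3.46 and 4.34 FPKM in the 4 libraries without siRNA, at 15.3 and 15.2 with NC siRNA #1 and at 10.1 and 10.6 with NC siRNA #2. Tgfbi, a secreted protein of the extracellular matrix, was between 4.07 and 6.63 FPKM in the 4 libraries without siRNA, at 13.6 and 14.6 with NC siRNA #1 and at 13.5 and 13.4 with NC siRNA #2. Of these, Irgm1 was higher with NC siRNA #2 and St5 with NC siRNA #1, while the 4 siRNA libraries of Tgfbi lay between 13.4 and 14.6 FPKM.

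Gatm, the first enzyme of creatine synthesis, was the most abundant of the named rises, between 70.3 and 101 FPKM in the 4 libraries without siRNA, at 211 and 207 with NC siRNA #1 and at 176 and 185 with NC siRNA #2. Ankrd52, a regulatory subunit of protein phosphatase 6, was between 14.2 and 22.1 FPKM in the 4 libraries without siRNA, at 47.3 and 49.6 with NC siRNA #1 and at 39.9 and 39.1 with NC siRNA #2. Hipk3, a protein kinase, was between 5.79 and 9.47 FPKM in the 4 libraries without siRNA, at 23.7 and 21.3 with NC siRNA #1 and at 17.2 and 18.8 with NC siRNA #2. The call of Hipk3 did not hold when an NC siRNA #2 library was left out, as was also found for Ube2c, Gadd45b, Gbp3 and Gm10012. The shared calls of Tgfbi, Sdk2, Ankrd52, Hsd17b12 and Gbp3 did not hold with mock as the only control, nor that of Gatm with non-treated as the only control. Sdk2, an adhesion molecule of the immunoglobulin family, was between 11.8 and 20.8 FPKM in the 4 libraries without siRNA, at 36.3 and 35.9 with NC siRNA #1 and at 38.6 and 33.8 with NC siRNA #2. The log2 change of Sdk2 was 1.2 ± 0.10 with NC siRNA #1 and 1.2 ± 0.10 with NC siRNA #2. Glt25d2, a collagen galactosyltransferase, and Ankrd10, an ankyrin repeat protein, rose by 1.48 and 1.35 with NC siRNA #1 and by 1.13 and 1.11 with NC siRNA #2 (log2).

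Below 10 FPKM, the growth factor gene Igf2 was between 1.23 and 1.96 FPKM in the 4 libraries without siRNA, at 6.395 and 6.88 with NC siRNA #1 and at 3.81 and 5.45 with NC siRNA #2. Its neighbour on the chromosome, the imprinted noncoding RNA H19, stood at 129 and 75.6 FPKM in the non-treated libraries, 149.9 and 151 in the mock libraries, 509 and 522 with NC siRNA #1 and 255 and 233 with NC siRNA #2. H19 was called with NC siRNA #1 (2.07 ± 0.20) and fell just short of the fold threshold with NC siRNA #2 (0.99 ± 0.20).

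**Figure D3:**
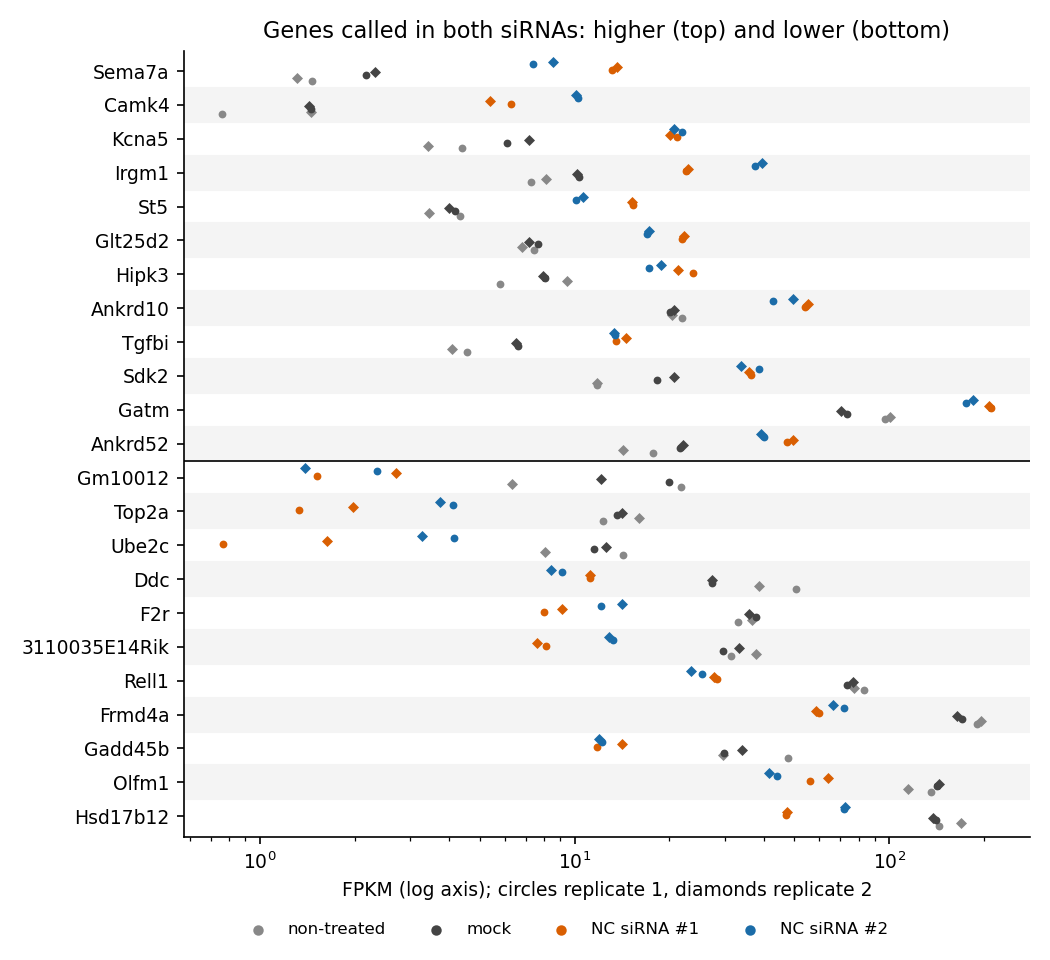
FPKM, on a log axis, of the named genes called in the same direction with both siRNAs, in each of the 8 libraries. Every gene shown has its 4 siRNA libraries on one side of its 4 control libraries, and the replicates of Gm10012 are far apart.

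In all 53 shared falls the 4 siRNA libraries lay below the 4 controls, and in all 22 shared rises above them, against 8.09% and 12.2% of all genes tested. The calls themselves favour such genes, so this describes the members and is no further evidence. The change was larger with NC siRNA #1 in 42 of the 53 falls and 16 of the 22 rises. With siRNA against Secisbp2l, the median of the 53 falls against the same controls was -1.24 and -1.27 and that of the 22 rises was 0.70 and 0.74. With siRNA against Pdgfra they were -0.24 and -0.22 for the falls and 1.18 and 1.16 for the rises. Over all genes tested the corresponding medians were 0.17 and 0.16, then 0.08 and 0.10. These comparisons use the same control libraries as those above.

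Of 47 genes of interferon signalling, 14 were expressed highly enough to be tested. With each siRNA 2 of the 14 were called higher, Irgm1 and Gbp3 both times, where 1.65% of all genes tested were called higher with NC siRNA #1 and 0.772% with NC siRNA #2. With NC siRNA #2 1 was called lower. By limma 10 and 8 of the 14 had an unadjusted p under 0.05 with NC siRNA #1 and #2, as did 4017 and 3490 of all 11392. The median log2 change of the 14 was 0.23 and 0.12, against 0.01 and 0.06 over all genes tested. In 5 of them (35.7%) all 4 siRNA libraries lay above all 4 controls, against 12.2% of all genes tested, and in 2 they lay below. Gbp3, a guanylate-binding GTPase, was between 2.47 and 3.51 FPKM in the 4 libraries without siRNA, at 7.78 and 6.403 with NC siRNA #1 and at 7.995 and 6.99 with NC siRNA #2. H2-D1, a class I histocompatibility gene whose near-identical relatives may share its reads, stood at 31.7 and 18.8 FPKM in the non-treated libraries, 25.9 and 30.9 in the mock libraries, 26.03 and 28.8 with NC siRNA #1 and 11.2 and 12.03 with NC siRNA #2, and was the 1 gene called lower.

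Of the 21 sensors of double-stranded RNA and their adaptors, 12 were tested and none was called with either siRNA by limma, with 1 and 2 at an unadjusted p under 0.05. Eif2ak2, the kinase PKR that double-stranded RNA activates, was between 3.21 and 4.59 FPKM in the 4 libraries without siRNA, at 4.07 and 3.86 with NC siRNA #1 and at 4.05 and 3.66 with NC siRNA #2. Its log2 changes were -0.01 ± 0.11 with NC siRNA #1 and -0.04 ± 0.11 with NC siRNA #2. The receptors Ddx58 (RIG-I), Ifih1 (MDA5) and Tlr3 were too low to be tested, with highest values of 1.11, 0.171 and 0.379 FPKM in the 8 libraries. Of 13 tested genes of NF-κB and inflammatory signalling, Il33 (between 0.628 and 0.9987 FPKM in the 4 libraries without siRNA, at 2.53 and 2.63 with NC siRNA #1 and at 2.87 and 2.86 with NC siRNA #2) and Bcl3 (between 2.93 and 7.91 FPKM in the 4 libraries without siRNA, at 9.54 and 11.6 with NC siRNA #1 and at 13.9 and 14.4 with NC siRNA #2) were called higher with NC siRNA #2, and none was called with NC siRNA #1 (6 at an unadjusted p under 0.05 by limma). Of all genes tested, 0.772% were called higher with NC siRNA #2. With mock as the only control neither Il33 nor Bcl3 was called.

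The machinery that uses small RNAs was expressed throughout, with all 26 genes tested and 1 call. Of all genes tested, 3.39% were called with NC siRNA #1 and 2.24% with NC siRNA #2. Dicer1, the nuclease that makes microRNAs from their precursors, was between 20.1 and 24.8 FPKM in the 4 libraries without siRNA, at 47.4 and 44.2 with NC siRNA #1 and at 34.9 and 35.1 with NC siRNA #2. It was called with NC siRNA #1 (1.05 ± 0.10) and not with NC siRNA #2 (0.67 ± 0.10). Ago2, the Argonaute that cleaves its targets, changed by 0.67 and 0.63 on the log2 scale (limma, adjusted p = 0.020 and 0.031), under the fold threshold. Ago1, another Argonaute, changed by 0.48 with NC siRNA #1 and by -0.70 with NC siRNA #2.

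The 2 siRNAs differed at the myelin genes. Of 30 genes of myelin and late OLs, 27 were tested. NC siRNA #1 raised 7 and lowered 1, Opalin (log2 change -1.01), so its changes were not all rises. With NC siRNA #2 limma called none higher and 5 lower. By limma 17 and 15 of the 27 had an unadjusted p under 0.05 with NC siRNA #1 and #2, in either direction. Over all genes tested, 3.39% were called with NC siRNA #1 and 2.24% with NC siRNA #2. The list median was 0.40 with NC siRNA #1 and -0.34 with NC siRNA #2. The direct comparison of the siRNAs gave 12 of the 27 genes lower with NC siRNA #2 and none higher, where 4.02% of all genes tested were called in either direction.

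Mobp, a protein of compact myelin, stood at 16.98 and 15.9 FPKM in the non-treated libraries, 20.6 and 20.4 in the mock libraries, 103 and 101 with NC siRNA #1 and 5.05 and 5.93 with NC siRNA #2. It rose by 2.41 ± 0.09 with NC siRNA #1 and changed by -1.58 ± 0.09 with NC siRNA #2, a difference of -3.99 ± 0.11 (limma, adjusted p = 1.4e-05). This was the largest difference among the named genes. Mog, a glycoprotein of the outer myelin surface, was between 34.95 and 41.9 FPKM in the 4 libraries without siRNA, at 64.4 and 67.2 with NC siRNA #1 and at 5.23 and 5.45 with NC siRNA #2. Apod, an apolipoprotein of late OLs, was between 2.16 and 2.76 FPKM in the 4 libraries without siRNA, at 23.8 and 23.4 with NC siRNA #1 and at 0.872 and 1.06 with NC siRNA #2. Ermn, an actin-binding myelin protein, was between 1.19 and 1.898 FPKM in the 4 libraries without siRNA, at 14.9 and 12.7 with NC siRNA #1 and at 0.353 and 0.2597 with NC siRNA #2. For all 4 genes the control libraries lay between those of the 2 siRNAs.

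Trf, the iron carrier transferrin, was between 73.1 and 90.5 FPKM in the 4 libraries without siRNA, at 333 and 324 with NC siRNA #1 and at 66.9 and 68.3 with NC siRNA #2, and was called with NC siRNA #1 alone. Mag, which faces the axon in myelin, was between 294 and 528 FPKM in the 4 libraries without siRNA, at 415 and 446 with NC siRNA #1 and at 135 and 137 with NC siRNA #2, and was called with NC siRNA #2 alone. Mbp and Cnp passed the fold threshold with neither siRNA. Mbp, the basic protein that compacts myelin, stood at 1188 and 710.01 FPKM in the non-treated libraries, 799 and 792 in the mock libraries, 994 and 981 with NC siRNA #1 and 434 and 436 with NC siRNA #2, with log2 changes of 0.21 ± 0.19 with NC siRNA #1 and -0.97 ± 0.19 with NC siRNA #2. Those of Cnp were 0.24 ± 0.14 with NC siRNA #1 and -0.23 ± 0.14 with NC siRNA #2.

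**Figure D4:**
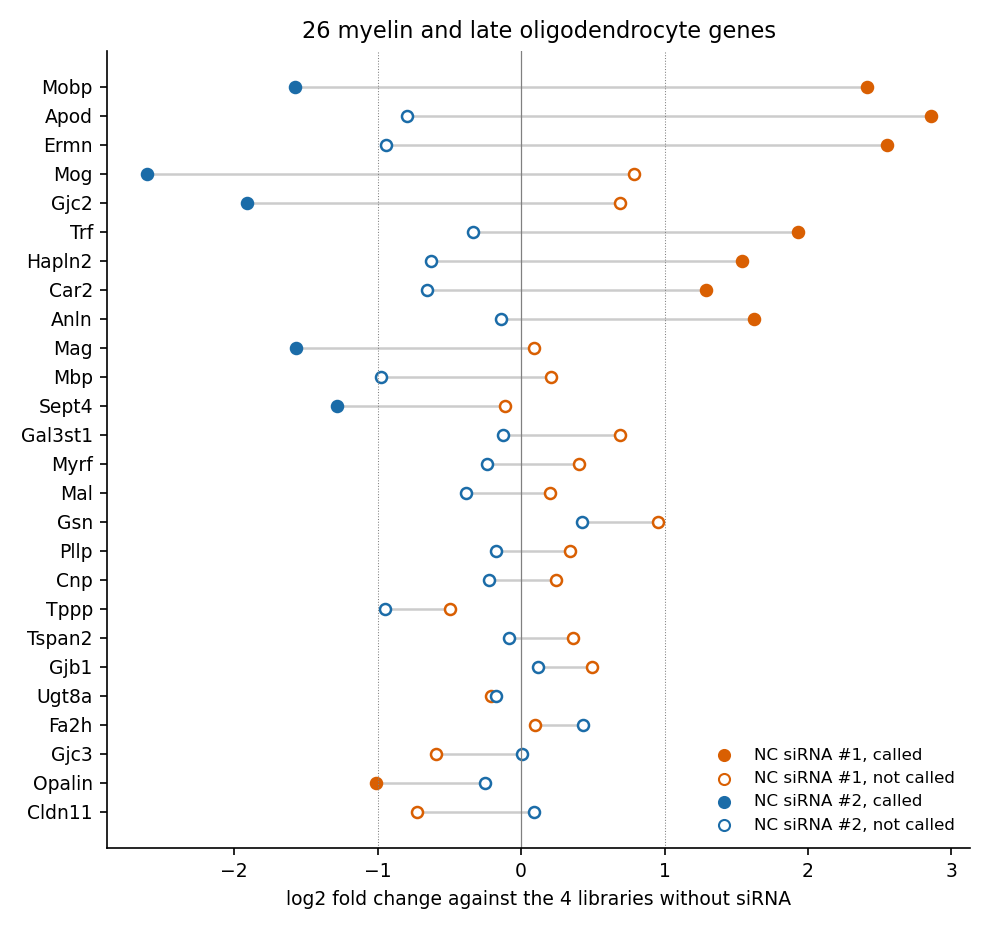
Log2 fold change against the 4 libraries without siRNA of 26 of the 27 myelin and late OL genes tested, with a pair of points joined by a line for each gene. Filled points are called, and dotted lines mark a fold change of 2. Mobp is called on both sides of 0, Apod, Ermn and Trf are called with NC siRNA #1 on the right, and Mog and Mag with NC siRNA #2 on the left.

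Besides Mobp, 5 further genes were raised by NC siRNA #1 and lowered by NC siRNA #2. Ripk2, a kinase of innate immune signalling, stood at 20.7 and 25.2 FPKM in the non-treated libraries, 14.2 and 14.6 in the mock libraries, 50.5 and 46.9 with NC siRNA #1 and 4.07 and 5.21 with NC siRNA #2. Pdlim2, a PDZ and LIM domain protein, was between 12.96 and 27.2 FPKM in the 4 libraries without siRNA, at 69.9 and 75.97 with NC siRNA #1 and at 9.08 and 9.97 with NC siRNA #2. Nfe2l3, a transcription factor, was between 17.7 and 30.5 FPKM in the 4 libraries without siRNA, at 59.6 and 56.2 with NC siRNA #1 and at 7.17 and 8.45 with NC siRNA #2. For each of the 3 the 2 siRNAs lay on opposite sides of the control range.

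Phactr1, a regulator of actin and protein phosphatase 1, was between 7.7 and 8.39 FPKM in the 4 libraries without siRNA, at 22.2 and 22.04 with NC siRNA #1 and at 2.49 and 2.699 with NC siRNA #2. The siRNA groups again flanked the controls. Miat, a long noncoding RNA outside the rule for named genes that was added after its values were seen, was between 26.6 and 41.96 FPKM in the 4 libraries without siRNA, at 82.1 and 83.4 with NC siRNA #1 and at 12.6 and 16 with NC siRNA #2. The reverse, lower with NC siRNA #1 and higher with NC siRNA #2, was found for a pair of genes. Myo5b, a myosin motor, was between 5.27 and 7.61 FPKM in the 4 libraries without siRNA, at 2.04 and 1.96 with NC siRNA #1 and at 17.3 and 16.6 with NC siRNA #2. Slc6a19, an amino acid transporter also named after its values were seen, was between 1.57 and 2.997 FPKM in the 4 libraries without siRNA, at 0.291 and 0.409 with NC siRNA #1 and at 9.29 and 9.56 with NC siRNA #2. The spread within each siRNA group was small beside these differences.

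Several genes that the study follows moved less. Secisbp2l itself stood at 157 and 223 FPKM in the non-treated libraries, 159 and 159 in the mock libraries, 255 and 244 with NC siRNA #1 and 135 and 140.4 with NC siRNA #2, with 3.91 and 3.82 with its own siRNA. Pdgfra stood at 62.7 and 72.1 FPKM in the non-treated libraries, 61.3 and 62.9 in the mock libraries, 32.4 and 32.7 with NC siRNA #1 and 47.01 and 44.3 with NC siRNA #2, with 3.298 and 2.69 with its own siRNA. The log2 changes of Pdgfra, -0.97 ± 0.09 with NC siRNA #1 and -0.49 ± 0.09 with NC siRNA #2, and of Secisbp2l, 0.53 ± 0.14 with NC siRNA #1 and -0.33 ± 0.14 with NC siRNA #2, were under the fold threshold. Tcf7l2, a transcription factor of OL differentiation, stood between 57.2 and 60.97 FPKM in the 4 libraries without siRNA, at 48.6 and 47.2 with NC siRNA #1 and at 51.6 and 48.8 with NC siRNA #2. All 4 of its siRNA values were below the controls, with log2 changes of -0.31 and -0.24, and neither was called.

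Of 19 genes of committed and premyelinating OLs tested, 2 fell with NC siRNA #1, where 1.74% of all genes tested were called lower, and none was called with NC siRNA #2 (12 at an unadjusted p under 0.05 by limma). The list's median log2 change was -0.27 with NC siRNA #1 and -0.25 with NC siRNA #2. In 7 of the 19 genes (36.8%) all 4 siRNA libraries lay below all 4 controls, against 8.09% of all genes tested, and in none above. The 2 genes called were Itpr2, a calcium release channel, between 28.1 and 34.2 FPKM in the 4 libraries without siRNA, at 11.5 and 10.9 with NC siRNA #1 and at 21.7 and 19.7 with NC siRNA #2, and Bcas1, a marker of newly formed OLs, between 1465 and 1905 FPKM in the 4 libraries without siRNA, at 848 and 802 with NC siRNA #1 and at 1504 and 1291 with NC siRNA #2. Of 26 precursor genes, with medians of -0.43 and -0.15, none was called with NC siRNA #1 (15 at an unadjusted p under 0.05 by limma) and 2 with NC siRNA #2, where 2.24% of all genes tested were called. With NC siRNA #2 Sox6, a transcription factor that holds back differentiation, rose from a control range of 32.4 to 47.6 FPKM to 93.8 and 91.4, and Ccnd1 fell as given above. Sox6 was at 30.8 and 29.8 FPKM with NC siRNA #1. The call of Sox6 did not hold with mock as the only control, nor that of Bcas1 with non-treated as the only control.

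Some markers of other cells differed from the controls with NC siRNA #1, and in part with NC siRNA #2. The summed FPKM of 12 astrocyte markers was 227 and 237 with NC siRNA #1, 317 to 389 without siRNA, and 371 to 383 with NC siRNA #2. Of 13 neuron markers, 12 were among the genes measured. Their summed FPKM was 283 and 290.3 with NC siRNA #1, 58.5 to 113 without siRNA and 129 to 135 with NC siRNA #2. With NC siRNA #1 nearly all of it was Tubb3, a tubulin, at 267 and 273. Of the 13 neuron markers 5 were tested, with a median log2 change of 0.60 with NC siRNA #1 and -0.28 with NC siRNA #2, and Tubb3 was the 1 called, with NC siRNA #1. Stmn2 and Slc17a7 were among those too low to be tested. P2ry12, a receptor of microglia, was between 0.703 and 1.803 FPKM in the 4 libraries without siRNA. It was at 9.46 and 8.78 with NC siRNA #1 and at 2.94 and 3.85 with NC siRNA #2. Its log2 change was called with NC siRNA #1 (2.21) and fell just short of the fold threshold with NC siRNA #2 (0.9991). Against the same controls, with no test, its log2 difference was 0.94 and 1.14 with siRNA against Secisbp2l. With siRNA against Pdgfra it was 1.97 and 1.79. Of the 12 microglia markers 6 were at 0 in all 8 libraries and 11 were below 1 FPKM. Of 8 endothelial markers 1 was expressed highly enough to be tested and it was not called, and of 9 fibroblast and mural markers none reached 1 FPKM in any of the 8 libraries. The part of other cells in the results above was not tested.

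Since siRNAs can act through short matches in 3′UTRs, the 3′UTRs of the tested genes were read for short words. GENCODE M21 gave a 3′UTR for 10334 of the 11392 genes tested (90.7%). Each of the 4049 words of 6 letters found in the 3′UTRs of at least 200 genes was ranked by the median log2 change of the genes that hold it, reading the message strand only. The word with the lowest median with NC siRNA #1 was GACGTA, and with NC siRNA #2 it was GCAACC. Both words were picked from the changes they describe, so the medians below describe those changes and test nothing. Sites are shown for genes that fell far with the siRNA named beside them, chosen after their values were seen, with 25 bases or fewer of the message strand on mm10 and the word in capitals.
Fkbp9, chr6:56879186-56879210, plus strand, word of NC siRNA #1: actcactctGACGTAatcaggacat
Lpcat1, chr13:73516400-73516422, plus strand, word of NC siRNA #1: acatgacacGACGTAaagtttta
Lin7c, chr2:109898983-109899007, plus strand, word of NC siRNA #1: gaagagtatGACGTAttttaattta
Crk, chr11:75703743-75703767, plus strand, word of NC siRNA #1: gtatgagaaGACGTAaatacattgc
Atp6v1d, chr12:78843298-78843322, minus strand, word of NC siRNA #2: cataattcaGCAACCcgagatttgc
Gng12, chr6:67017624-67017648, plus strand, word of NC siRNA #2: accacagcaGCAACCtgaagggatt
Rell1, chr5:63910418-63910442, minus strand, word of NC siRNA #2: ggtttaaagGCAACCaaaggccaaa
Fundc1, chrX:17557702-17557726, minus strand, word of NC siRNA #2: tattcttgaGCAACCatggattttg
Rell1 fell with both siRNAs, as given above. Whether either word pairs with an siRNA was not tested.

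With NC siRNA #1 the 547 genes that hold GACGTA had a median log2 change of -0.086, against 0.015 for the 9787 genes without it. The median was -0.078 for 513 genes with 1 match and -0.148 for 34 genes with 2 or more. The same 547 genes had a median of 0.058 with NC siRNA #2 and of 0.008 in mock minus non-treated. Taken alone, the replicates of NC siRNA #1 gave -0.074 and -0.126, and GACGTA ranked lowest of all words in both.

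With NC siRNA #2 the 1902 genes that hold GCAACC had a median of -0.025, against 0.074 for the 8432 genes without it. The median was -0.013 for 1531 genes with 1 match and -0.089 for 371 genes with 2 or more. With NC siRNA #1 the 1902 genes had a median of 0.065, and in mock minus non-treated 0.061. The replicates of NC siRNA #2 gave -0.029 and -0.03, and GCAACC ranked lowest in both. Genes with a word have longer 3′UTRs, with a median of 2915 bases for GACGTA and 2527 for GCAACC, against 1203 and 1052 for genes without, and the part of length was not tested.

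**Figure D5:**
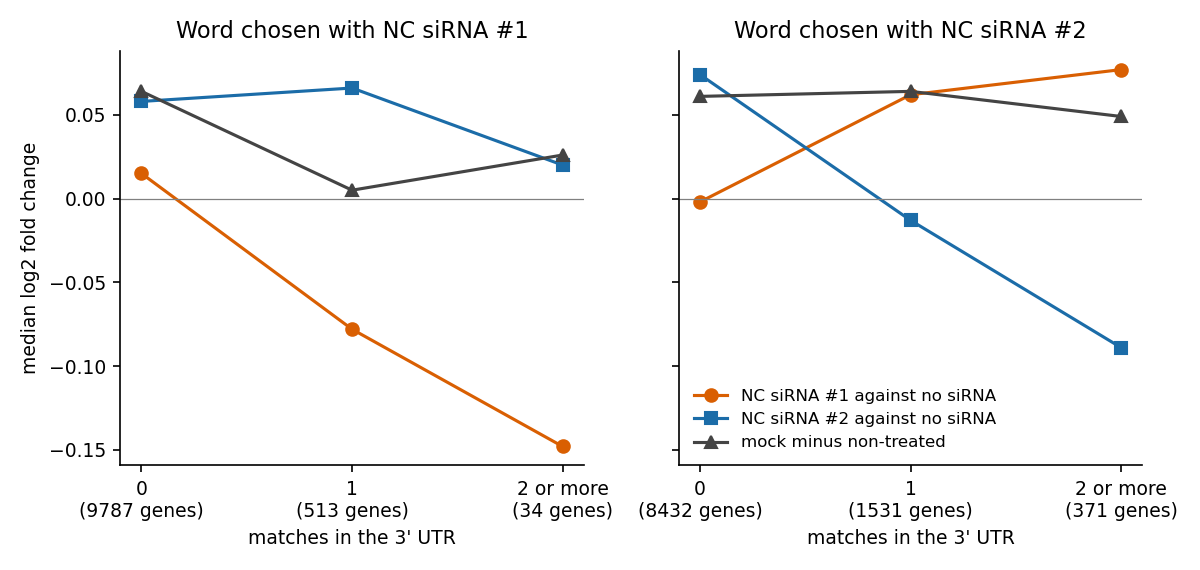
Median log2 fold change of genes by the number of matches to GACGTA (left) or GCAACC (right) in their 3′UTR, for each siRNA against no siRNA and for mock minus non-treated. The line of NC siRNA #1 falls with matches to GACGTA, to -0.148, and that of NC siRNA #2 with matches to GCAACC, to -0.089.

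Among single genes, Atp6v1d, a subunit of the lysosomal proton pump with 3 matches to GCAACC, stood at 105 and 103 FPKM in the non-treated libraries, 95.9 and 91.99 in the mock libraries, 85.3 and 81.99 with NC siRNA #1 and 18.2 and 17.7 with NC siRNA #2. Fkbp9, a prolyl isomerase of the endoplasmic reticulum with 1 match to GACGTA, stood at 28.9 and 25.8 FPKM in the non-treated libraries, 27.96 and 26.3 in the mock libraries, 6.38 and 6.54 with NC siRNA #1 and 23.1 and 22.5 with NC siRNA #2. Lpcat1, an acyltransferase of phospholipids, was between 43.97 and 50.7 FPKM in the 4 libraries without siRNA, at 11.9 and 14.8 with NC siRNA #1 and at 50.7 and 47.4 with NC siRNA #2. Each of the 3 was lowered by one siRNA, with the other siRNA close to the controls.

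The shares of lowered genes that hold a word rest on the same changes that picked the words, and they too test nothing. Of 104 genes lower with NC siRNA #2 only, 48 (46.2%) held GCAACC, against 18.4% of all genes with a 3′UTR. Of 136 genes lower with NC siRNA #1 only, 18 (13.2%) held GACGTA, against 5.3% of all. Of the 47 shared falls with a 3′UTR none held GACGTA, and 6 (12.8%) held GCAACC, Rell1 among them. No shared fall held both words. The median 3′UTR length was 1454 bases for the 104 genes, 902 for the 136 and 896 for the 47.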

How the data were processed

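RNA was sequenced by the authors from poly(A)-selected, stranded libraries of primary mouse OPC cultures. The deposited table gives FPKM per gene for each library, on mm10, and the authors' own fold changes and p-values, which were not used. The aligner, counter and strand setting are not given in the sources used here. Columns were matched to samples by their names. The members and gene lists were chosen with earlier results of these data known.

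FPKM were taken as log2(FPKM + 1), so that fold changes of low genes are understated. Genes with FPKM of at least 1 in 2 or more of the 8 libraries were fitted with limma 3.58.1 in R 4.3.3 with 1 mean per group, an intensity trend and robust moderation, and two-sided p-values were adjusted by the Benjamini-Hochberg method over 11392 genes. Calls required a 2-fold change or more and an adjusted p under 0.05. The fit had 4 residual degrees of freedom. It was tested on simulated data with equal spread in all groups and changes placed only in well expressed genes. That simulation does not cover the wider spread of the non-treated group or changes of lowly expressed genes. Depth was inferred from the whole-fragment steps of low FPKM values. With 88.8% to 92.5% of low values within 0.1 of a whole fragment count, the inferred depths are estimates.

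Named genes were, among the shared genes with an FPKM of at least 10 in 1 library, up to 12 largest rises and 12 largest falls, the 6 genes of this level that differed most between the siRNAs among those called in opposite directions, up to 4 called members of each list by size of mean change, 5 genes the study discusses and the cell markers. Other named genes illustrate a list or group and were chosen after their values were seen. Some genes are not reported here. The 3′UTR and promoter words were searched in GENCODE M21 (basic) and RefSeq (first-listed start of each gene) with Python 3.11.15. Alternatives covered the pseudocount, filter, scaling, fold threshold, controls, GC content, a replicate block and each library left out. The labels give no pairing of samples by replicate number, and the main fit used none. The correlation of replicate differences between groups was -0.39 to 0.22. It cannot settle whether the samples pair, because the differences ran with GC content in some groups.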

Additional observations from a re-analysis of the deposited data

Results flagged for a closer look

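The response to the siRNAs differed between them by a test of the difference itself (limma) for 458 genes. The genes below passed that test at an adjusted p under 0.05, and values are NC siRNA #2 minus NC siRNA #1 on the log2 scale, with 2 libraries each. Among genes called in opposite directions the difference was -3.99 for Mobp, -3.15 for Ripk2, -2.81 for Pdlim2, -2.74 for Nfe2l3, -2.68 for Phactr1 and 2.58 for Myo5b. Among myelin genes it was -3.65 for Apod, -3.50 for Ermn, -3.40 for Mog and -2.27 for Trf. Ube2c, lower with both siRNAs, differed by 1.12. For each of them both libraries of one siRNA lay beyond both libraries of the other.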

How the results depend on the processing

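The shared count of 75 genes was 119 with a pseudocount of 0.5, 14 with a pseudocount of 5, 49 with a filter at FPKM 5, and 311 with a fold threshold of 1.5. For the other comparisons a pseudocount of 0.5 gave 243 genes for the mean of both siRNAs. A pseudocount of 5 gave 121 for NC siRNA #1, 76 for NC siRNA #2, 33 for their mean, 194 between the siRNAs and 0 for mock against non-treated. The FPKM 5 filter gave 98 for the mean. The fold threshold of 1.5 gave 1334, 971, 769 and 1275 genes in the same order. The 15 division genes lower with both siRNAs became 1, 8 and 23 under the pseudocount of 5, the FPKM 5 filter and the fold threshold of 1.5. These settings change the threshold or the genes tested by their construction.

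With group means as the replicates, 2 against 2, limma called 2 genes, Gm10012 and Prc1, for the mean of both siRNAs. Leaving out single libraries gave 51 to 76 shared genes, the fewest without NC siRNA #2 replicate 2, the shallowest library. The range was 336 to 421 for NC siRNA #1, 181 to 275 for NC siRNA #2, 144 to 165 for the mean and 358 to 464 between the siRNAs. The division genes lower with both were 8 to 15, with 8 without NC siRNA #2 replicate 2 and 9 without replicate 1. In these fits the lone library of a group is assumed to vary like the others. With mock alone as the control and without the shallow library, an alternative chosen after seeing the data, 122 genes were called for NC siRNA #2, 30 were shared and 4 division genes were lower with both. The cause was not tested.

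Mock against non-treated gave 0 to 113 genes with single libraries left out (422 to 7076 at an unadjusted p under 0.05 by limma), 113 without non-treated replicate 1 and 8 without replicate 2. It gave 0 with no filter (1684 at an unadjusted p under 0.05 by limma), 0 with a pseudocount of 5 (1305) and 0 with the replicate block (1121). With the replicate block the other counts were 386, 253, 148 and 454, with 74 shared genes, and it changed no other count by more than 1.5 times. Replicate numbers share no origin that the labels give. Other scalings, mock or non-treated as the only control, separate controls for each siRNA, all 12 Day3 libraries in the fit and removal of GC and length trends gave 59 to 85 shared genes. Of these, 14 were higher and 50 lower with mock as the only control, and 37 and 48 with non-treated. For 60 named genes the alternatives gave 1354 values, 1 for each gene and setting. None of these values changed direction and 114 no longer met the call, while 26 genes met it in every setting. Hipk3, Gm10012, Ube2c, Gadd45b and Gbp3 lost the shared call when an NC siRNA #2 library was left out, and Igf2 without replicate 2. Without a non-treated library the shared calls of Hipk3, Gbp3, Ankrd52 and Hsd17b12 ended. Calls with 1 siRNA that ended without at least 1 library were those of H2-D1, Dicer1, Bcl3, Sox6, Bcas1, Myc, Junb and Selm. With non-treated as the only control those of Dicer1, Bcas1, Myc and Selm ended.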

Other observations

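The remaining lists are given beside the 3.39% and 2.24% of all genes tested that were called with NC siRNA #1 and #2. Of 21 cholesterol synthesis genes and of 22 genes of fatty acid synthesis and its control, none was called by limma with either siRNA, although 7 and 6 had an unadjusted p under 0.05 with NC siRNA #1, and 8 and 6 with NC siRNA #2. Of 33 lysosome and endosome genes, Rab7, a GTPase of late endosomes, fell with NC siRNA #2 (-1.13 ± 0.11), from 239.8 to 267 FPKM without siRNA to 125 and 104. Of 32 integrated stress response genes, Gpt2, an alanine aminotransferase, fell with NC siRNA #2 (-1.59 ± 0.09) from 30.7 to 33.7 FPKM to 9.72 and 10.4.

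Of 26 antioxidant genes, Srxn1, which repairs peroxiredoxins, rose with NC siRNA #1 (1.18 ± 0.09). Of 27 chaperone genes, Cryab, a small heat shock protein, rose with NC siRNA #1 (1.29 ± 0.12). Of 21 immediate early genes, Nr4a3 and Junb rose with NC siRNA #2 (1.36 ± 0.10 and 1.15 ± 0.27), Arc fell with it (-1.61 ± 0.16), and Myc fell with NC siRNA #1 (-1.11 ± 0.16), which makes 3 of 21 called with NC siRNA #2 and 1 with NC siRNA #1. The call of Junb did not hold with mock as the only control, nor that of Myc with non-treated as the only control. Of 22 p53 target and DNA damage genes, Plk3 fell with NC siRNA #2 (-1.31 ± 0.15), beside the rise of Cdkn1a and the fall of Gadd45b given above. Of 21 genes of the selenocysteine machinery and selenoproteins, Selm fell with NC siRNA #1 (-1.01 ± 0.26). Slc4a4, an astrocyte marker, fell with NC siRNA #1 (-1.11 ± 0.12).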
